A study of Mus musculus with 49 samples.

Results

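Lcn5, Lcn8, Lcn9, Gpx5, Rnase10, Adam7 and Crisp1 are genes of the epididymis, the duct along the testis in which sperm mature, and they were followed here in RNA-seq of mouse white fat. These 7 genes, of 22869 gene symbols measured, were picked by symbol because earlier results of these data showed high values in chow-fed 129S1/SvImJ libraries. Their chow values are therefore given as a description with no test, and tests were run only in the diet, drug and depot experiments that did not choose them. For each symbol the transcript row with the highest total was used, and all 7 symbols had a row in all 5 tables.

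The study compared 2 inbred strains, C57BL/6 and 129S1/SvImJ, and the labels name no transgene or deleted gene in either. Epididymal white adipose tissue (eWAT), the visceral fat pad attached to the epididymis, was taken from mice on standard rodent chow (5 libraries of each strain, age not given). In the drug experiment mice of each strain ate a low fat diet (D12450B) from 6 to 16 weeks of age. Then they ate, until 18 weeks, that diet either alone (4 control libraries of each strain) or with the PPARγ agonist rosiglitazone at 36 mg per kg of diet (4 of each). In the third and the fourth experiment mice ate the low fat diet for 12 weeks. eWAT (5 C57BL/6 and 4 129S1/SvImJ libraries) and inguinal white adipose tissue (iWAT), a fat pad under the skin that does not touch the epididymis (4 and 4), were taken from them. The 43 libraries hold whole tissue, and the labels do not say whether each is a separate animal, so the spread between libraries may be technical in part. In bulk tissue, fewer cells of a type and less RNA per cell cannot be told apart.

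In the mouse, each stretch of the epididymal duct transcribes its own set of genes for secreted proteins. The initial segment and caput come first, and the corpus and cauda lead on to the vas deferens. The principal cells that line the duct release these proteins onto passing sperm, and many of the genes need androgen or factors from the testis. Lipocalins (Lcn5, Lcn8, Lcn9) are carriers of small hydrophobic molecules, and Lcn5 binds retinoids. Gpx5 is a secreted glutathione peroxidase of the caput that protects sperm from oxidation. Rnase10 is a ribonuclease-like protein of the initial segment, Adam7 is a membrane protein passed from the caput to sperm, and Crisp1 is a cysteine-rich protein that coats sperm and is transcribed further along the duct.

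The stretch around the start of 3 of the genes is shown because Lcn5 and Gpx5 were high in 1 chow library and Crisp1 in 2. The sequences are from RefSeq (GRCm38.p6), run 5′ to 3′ on the gene's own strand from 250 bases before the start to 50 after it, and capitals mark the motifs named in the next paragraph.
Lcn5 (chr2:25657702-25658001, plus strand): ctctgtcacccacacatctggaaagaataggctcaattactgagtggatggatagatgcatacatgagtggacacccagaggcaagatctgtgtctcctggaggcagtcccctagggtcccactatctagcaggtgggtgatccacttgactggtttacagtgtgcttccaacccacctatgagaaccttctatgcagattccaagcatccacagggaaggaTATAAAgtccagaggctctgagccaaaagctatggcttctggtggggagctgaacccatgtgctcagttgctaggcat
Gpx5 (chr13:21292637-21292936, minus strand): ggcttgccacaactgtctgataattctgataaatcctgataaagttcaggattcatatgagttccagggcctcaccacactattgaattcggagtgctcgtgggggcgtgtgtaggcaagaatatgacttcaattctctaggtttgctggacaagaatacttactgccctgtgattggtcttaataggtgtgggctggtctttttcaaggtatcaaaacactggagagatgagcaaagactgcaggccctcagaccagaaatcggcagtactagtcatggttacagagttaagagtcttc
Crisp1 (chr17:40319158-40319457, minus strand): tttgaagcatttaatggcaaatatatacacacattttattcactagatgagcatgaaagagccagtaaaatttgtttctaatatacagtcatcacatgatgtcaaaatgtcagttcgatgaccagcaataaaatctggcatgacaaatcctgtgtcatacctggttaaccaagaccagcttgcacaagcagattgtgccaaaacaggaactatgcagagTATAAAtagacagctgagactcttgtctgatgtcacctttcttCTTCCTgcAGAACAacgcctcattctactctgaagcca

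A search on both strands used 3 short motifs: the androgen receptor core motif AGAACA (reverse TGTTCT), the PEA3 type ETS motif AGGAAG (reverse CTTCCT) and the TATA box TATAAA (reverse TTTATA). RefSeq windows were found for 6 of the 7 genes (7 windows, with 2 for Rnase10). The Crisp1 window held all 3 motifs, with TATAAA starting 31 bases before the start and CTTCCT and AGAACA starting 12 and 20 bases after it. That of Lcn5 held TATAAA 28 bases before the start and that of Lcn9 held AGAACA 45 bases before it, while those of Lcn8 and Gpx5 held none of these letters. Both Rnase10 windows, which overlap, held AGAACA and TGTTCT, and the later of them CTTCCT as well. Over the 32851 windows of all genes the androgen receptor core was in 6233, the PEA3 type motif in 11613 (35.4%) and the TATA box in 4473 (13.6%), and they were in 3, 2 and 2 of the 6 genes. A match of 6 letters is a description of the sequence and not a binding site.

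Values were whole numbers with a floor of 1 that the authors had normalized to a common distribution, so the depth of each library is unknown and a value gives a rank within its library. In the chow table every library had the same highest value, 145538, and totals of 7518968 to 7526303. 2 of the 10 chow libraries stood apart. In 129S1/SvImJ replicate 2, 446 genes (1.95% of all genes) were 8-fold or more above all other 9 libraries and 17 were 8-fold or more below, and in replicate 1, 60 genes were 8-fold above. The other 8 chow libraries had 0 to 11 such genes. The labelled tissue was checked with 19 adipocyte genes, which were present in all 10 libraries. Their summed level was 438127 to 536665 in the 8 libraries, 381569 in replicate 1 and 125348 in replicate 2.

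On chow, the 3 lipocalins were high in a single library, 129S1/SvImJ replicate 2. Lcn5 had 12, 3, 12, 9 and 3 in C57BL/6 replicates 1 to 5 and 27, 58238, 7, 16 and 10 in 129S1/SvImJ replicates 1 to 5. Replicate 2 was 2157-fold above the highest of the other 9 libraries, and the remaining 129S1/SvImJ values overlapped those of C57BL/6. Lcn8, in the same order, had 19, 7, 10, 14 and 3 in C57BL/6 and 4, 11478, 12, 17 and 10 in 129S1/SvImJ, so that replicate 2 was 604-fold above the next library. Lcn9 had 16, 7, 10, 10 and 7 in C57BL/6 and 7, 11641, 9, 14 and 18 in 129S1/SvImJ, a 647-fold step. In replicate 1, which also stood apart from the rest, Lcn8 and Lcn9 were within the range of the 8 other libraries and Lcn5 was 1.69-fold above its highest.

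Gpx5 and Rnase10 had the same pattern. Gpx5 had 51, 23, 31, 36 and 17 in C57BL/6 and 23, 145538, 37, 41 and 38 in 129S1/SvImJ. Replicate 2 was 2854-fold above the next library, at the table's shared maximum, so no gene of that library can be listed above it. Rnase10 had 11, 4, 6, 13 and 4 in C57BL/6 and 9, 7394, 16, 8 and 17 in 129S1/SvImJ, with replicate 2 435-fold above the next.

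The 2 sperm surface proteins parted in replicate 1. Adam7 had 45, 17, 36, 69 and 55 in C57BL/6 and 17, 81863, 42, 29 and 49 in 129S1/SvImJ, 1186-fold above the next library in replicate 2 and level with the lowest library in replicate 1. Crisp1 had 26, 6, 6, 29 and 7 in C57BL/6 and 33942, 39892, 17, 12 and 15 in 129S1/SvImJ. It was the member that was high in both libraries: replicate 1 was 1170-fold above the highest of the 8 others, and replicate 2 was 1.18-fold above replicate 1. In all, 6 of the 7 genes were 8-fold or more above the other 9 libraries in replicate 2 (background 1.95% of all genes) and 1 of 7 was 8-fold above the 8 in replicate 1 (background 0.577%). Both counts describe the values that chose the genes.

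**Figure D1:**
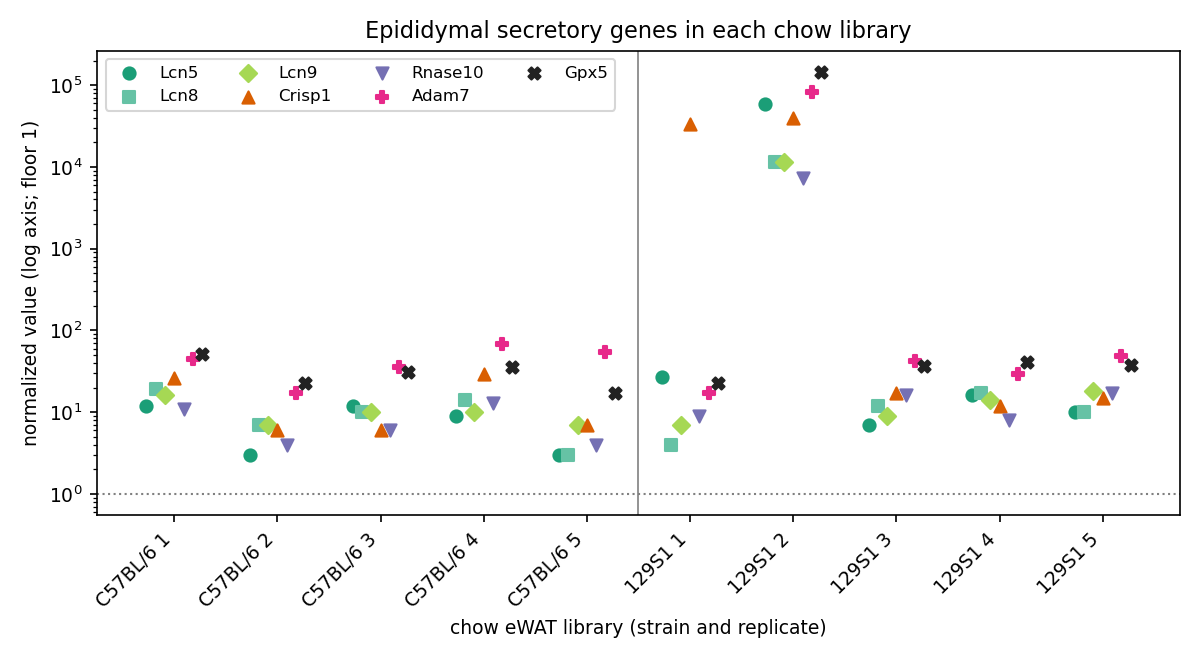
Normalized value of the 7 genes (log axis, dotted line at the floor of 1) in each of the 10 chow eWAT libraries, with 1 point per gene and library. In 129S1/SvImJ replicate 2 all 7 lie between 7394 and 145538, in replicate 1 Crisp1 alone is high at 33942, and elsewhere no point is above 69.

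Summed, the 7 genes made up 4.73% of all normalized values in replicate 2 and 0.452% in replicate 1, where Crisp1 was 99.7% of the sum. In the other 8 libraries they made up 0.000891% to 0.00239%. Crisp1 was 5.41% to 16.1% of the sum in these 8. Divided by transcript length, the replicate 2 value was 86940 per kilobase for Gpx5 and 83675 for Lcn5. It was 28172 for Crisp1, 23598 for Adam7, 17631 for Lcn8, 13875 for Lcn9 and 4539 for Rnase10. These shares and per-kilobase values come from scores normalized to a common distribution, with Gpx5 at its maximum. They are not measures of transcript amount. A second transcript row had nearly the same profile where a gene had 1: that of Lcn5 had 44622 in replicate 2 and that of Rnase10 had 7228. Reads shared between such isoforms may have been counted in both.

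As a strain difference, the mean log2(value + 1) of 129S1/SvImJ minus that of C57BL/6 was 1.93 (Adam7) to 4.79 (Crisp1), with a median of 2.55 over the 7 genes and 0.0 over all genes. Without replicate 2 the median of the 7 was 0.22, with 3.08 for Crisp1, 0.89 for Lcn5, 0.72 for Rnase10, 0.22 for Lcn9, 0.19 for Gpx5, 0.08 for Lcn8 and -0.33 for Adam7. Leaving out both replicates 1 and 2 brought Crisp1 to 0.30 and the median to 0.42. In the authors' deposited table the chow log2 fold change of C57BL/6 to 129S1/SvImJ was -9.67 for Lcn5, -9.66 for Crisp1 and -8.88 for Gpx5, and -7.66 to -7.73 for the other 4. The p-values listed in the authors' deposited table ran from 3.32e-10 (Crisp1) to 1.54e-07 (Adam7). The 129S1/SvImJ mean ± SD over the 5 libraries was 11660 ± 26038 for Lcn5 and 14776 ± 20321 for Crisp1, so that the SD was larger than the mean.

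Genes beside the 7 on the chromosomes were compared within each library, in the order of the RefSeq annotation, to see how far the high values reached. Of 40 measured neighbours, 17 were above the other 9 libraries in replicate 2 (background 20.2%) and 10 were 8-fold or more above (background 1.95%). Among the latter, Lcn6, Lcn10, Rnase9, Rnase12 and Adam28 are also in the list of other epididymal secretory genes below. Pgk2 is also in the sperm and testis list, so the counts overlap. On chromosome 2, Lcn8, Lcn5, Lcn6 and Lcn10 follow each other and all were high in replicate 2, with 2106 for Lcn6 and 3487 for Lcn10 against at most 6 and 5 in the 8 libraries. Further along, Bmyc had 190 against 13 to 46, the lipocalins Lcn3 and Lcn11 and the glycosyltransferase-like gene Glt6d1 were at the floor in replicate 2, and the next gene, Lcn9, had 11641. Beyond Lcn9, Kcnt1 had 99 against 10 to 25 and Camsap1 575 against 176 to 282. On chromosome 14, Rnase10 lies before Rnase9, Rnase11 and Rnase12, which had 12079, 57 and 1695 in replicate 2 against at most 7, 1 and 4 in the 8 libraries. Ang and Rnase4, ribonucleases of many tissues in the same cluster, had 20 and 313 in replicate 2, under the 48 to 83 and 493 to 817 of the 8. Eddm3b, an epididymal gene beyond Rnase4, had 1531 in replicate 2 and 148 in replicate 1 against 1 to 10, and was the 1 neighbour of 40 that was 8-fold above the 8 libraries in replicate 1.

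Elsewhere on chromosome 14, Adam7 is followed by Adamdec1 and Adam28, relatives of the same protease family, with 6 and 11852 in replicate 2, and then by Stc1, with 215 against 15 to 43. On chromosome 13, Gpx6 beside Gpx5 had 89 in replicate 2 and at most 2 in the 8. On chromosome 17, Pgk2 had 296 in replicate 2 against 1 to 10. Crisp3 and Crisp2, the relatives on either side of Crisp1, had 16 and 20 in replicate 1, where Crisp1 had 33942. Crisp3 was above its 1 to 2 in the 8 libraries there and had 5 in replicate 2. Crisp2, known from the testis, was within its range of 1 to 26 in replicate 1 and had 672 in replicate 2. The sources used here do not say how reads of near-identical relatives were counted, so reads could be split between Crisp1 and Crisp3.

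**Figure D2:**
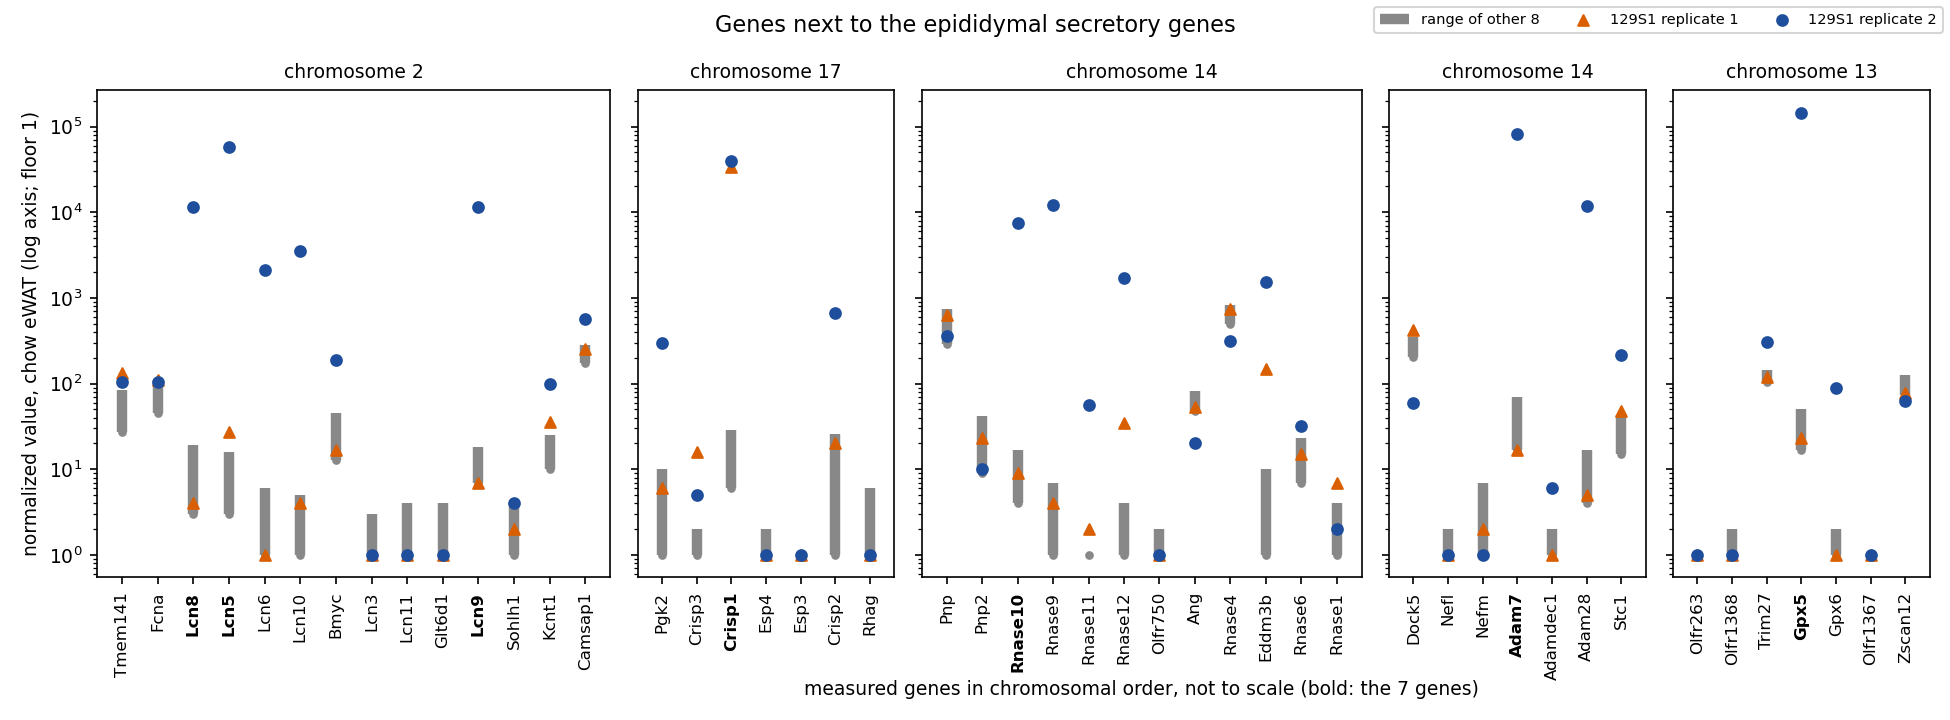
Normalized value (log axis) of the measured genes in chromosomal order around the 7 genes (bold), for 129S1/SvImJ chow replicate 1 (triangles), replicate 2 (circles) and the range of the other 8 chow libraries (bars). Lcn8 to Lcn10 and Rnase10 to Rnase12 are raised as runs in replicate 2, while Lcn3, Lcn11 and Glt6d1 are at the floor of 1.

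A list of 32 other epididymal secretory genes, of which 31 were measured, was high in replicate 2, while most of its genes were not raised in replicate 1. Like all lists it was chosen with earlier results of these data known. In replicate 2, 30 of 31 were above all other 9 libraries (20.2% of all genes) and 29 were 8-fold or more above (1.95% of all genes). The 31 values there ran from 271 to 16248 with a median of 2135. The highest were the defensin-like Spag11b (16248), Rnase9 (12079), the protease Adam28 (11852), and the β-defensins Defb42 (8423) and Defb20 (8297). In the 8 libraries no gene of the list was above 17. In replicate 1, 22 of 31 were within the range of the 8, 8 were above it and 1 was below it. Shares over all genes were not computed for these counts. In that library 4 were 8-fold or more above the 8 (background 0.577%) and 4 were over 100. Of these 4, the serine protease inhibitor Serpina1f was at 10423, above its 5071 in replicate 2. The other 3, Defb30 (1008), Defb42 (820) and the protease inhibitor-like Wfdc10 (158), were lower there than in replicate 2, and Defb30 and Wfdc10 were chosen after their values were seen. Crisp1 and Serpina1f were thus the only genes of both lists above 1008 in replicate 1.

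**Figure D3:**
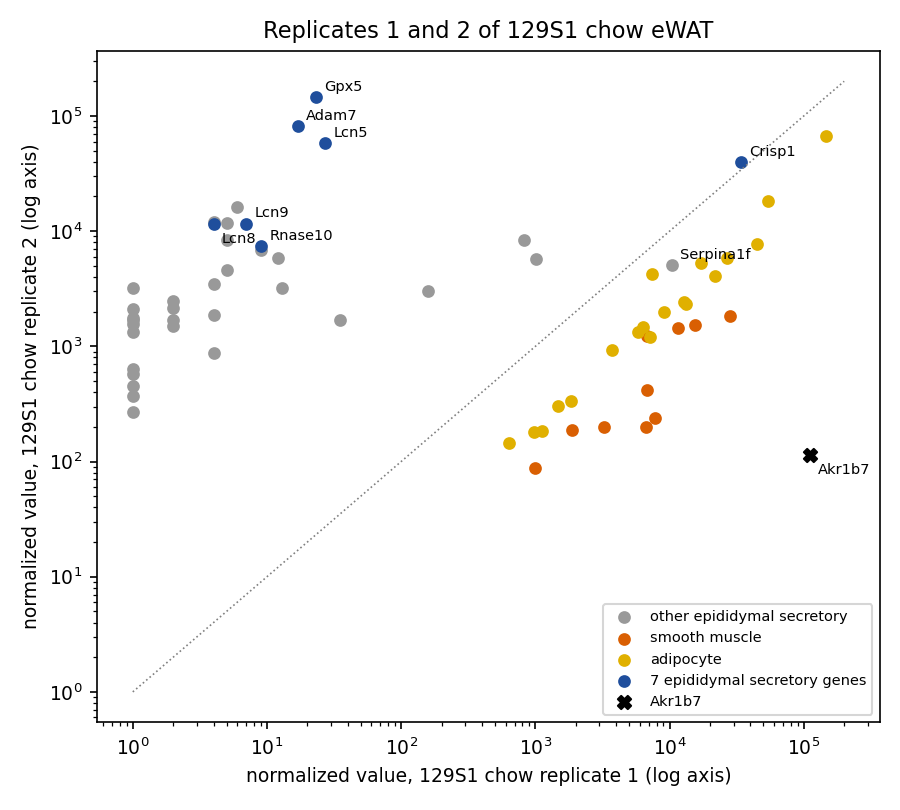
Normalized value in 129S1/SvImJ chow replicate 1 (x) against replicate 2 (y), both log axes, with 1 point per gene of 4 lists plus Akr1b7, and the dotted line marking equal values. Crisp1 lies on the line, the other 6 genes lie at 4 to 27 on the x axis and 7394 or more on the y axis, and the adipocyte and smooth muscle genes and Akr1b7 lie below the line.

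Some markers of other cell types moved with the 7 genes in replicate 2 and others did not, and their part in the result was not tested. Of 8 principal cell genes, 4 were above the other 9 libraries in replicate 2 (20.2% of all genes were). Ros1, a receptor kinase of the initial segment epithelium, had 2931 there against 1 to 9 in the 8 libraries. The sodium-proton exchanger Slc9a3 (7) and the oestrogen receptor Esr1 (415) were within the ranges of 1 to 183 and 388 to 1623, and Cubn (14) was below all other 9. Of 5 clear cell genes, 4 were above the other 9 libraries in replicate 2 (background 20.2%) and 2 were 8-fold or more above (background 1.95%). Foxi1 and Atp6v1g3 had 309 and 115 there against at most 6 and 1. Atp6v0d2 had 281 against 14 to 124 and Atp6v1b1 46 against 1 to 7, while Atp6v0a4 (78) was within its range of 14 to 236. The summed level of the 8 principal cell genes was 6394 in replicate 2, 1805 in replicate 1 and 655 to 9884 in the 8 libraries, and that of the 5 clear cell genes was 829, 44 and 48 to 289. Of 16 general epithelial genes, 15 were above the other 9 libraries in replicate 2 (background 20.2%). Their summed level was 12012 in replicate 2, 5181 in replicate 1 and 125 to 3209 in the 8. The 2 highest of these 8 were C57BL/6 replicates 2 and 5. There Epcam, an adhesion protein of epithelia, had 461 and 425, about as in replicate 1 of 129S1/SvImJ (447). The endocytic receptor Lrp2 had 6740 and 7468 in these libraries and Ggt1, a peptidase of epithelial brush borders, 587 and 622. Yet the sums of the 7 genes in these C57BL/6 libraries, 67 and 96, were the lowest of all 10.

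Sperm and testis genes were also listed higher in replicate 2, 10 of 12 above the other 9 libraries (background 20.2%), with 1651 for the sperm lactate dehydrogenase Ldhc and 192 for Akap4 of the sperm tail. Their summed level was 2574 there, 131 in replicate 1 and 60 to 249 in the 8. In replicate 1, Akr1b7, an aldo-keto reductase known from the mouse vas deferens and the adrenal gland, had 110841, against 114 in replicate 2 and 28 to 64 in the 8. The smooth muscle list, chosen after values were seen, was 8-fold or more above the 8 libraries in replicate 1 for 7 of 10 genes (background 0.577%). Its summed level was 89558 in replicate 1, 7373 in replicate 2 and 2780 to 7206 in the 8, with 28424 for Myh11, the smooth muscle myosin, in replicate 1. Seminal vesicle genes were high in another library, C57BL/6 replicate 2, with 1823 for Svs2, 2527 for Svs4 and 2584 for Svs5, where the 7 genes had 3 to 23. The 6 skin and mammary genes summed to 1491 in replicate 2, 443 in replicate 1 and 30 to 110 in the 8, and the milk genes Csn3 and Wap were at 1 or 2 in all 10 libraries.

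Adipocyte genes moved the other way. All 19 were below the other 9 libraries in replicate 2 (background 25.0%), at a median of 0.139 of their level in 129S1/SvImJ replicates 3 to 5, where the median over all genes was 1.0. Adipoq, the adipocyte hormone, had 2402 in replicate 2 and 19204 to 20038 in replicates 3 to 5. In replicate 1, 13 of the 19 were below the 8 libraries other than replicates 1 and 2, a count whose share over all genes was not computed. Adipoq, at 12829 there, was within the 11641 to 20038 of the 8. Of the 6 mesothelial genes, which mark the layer that covers visceral organs and fat, 5 were lowest in replicate 2 (background 25.0%). The median over all 6 was 0.0711 of their level in 129S1/SvImJ replicates 3 to 5. Their summed level was 233 in replicate 2, 1949 in replicate 1, 1199 to 2488 in replicates 3 to 5 and 266 to 778 in C57BL/6.

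**Figure D4:**
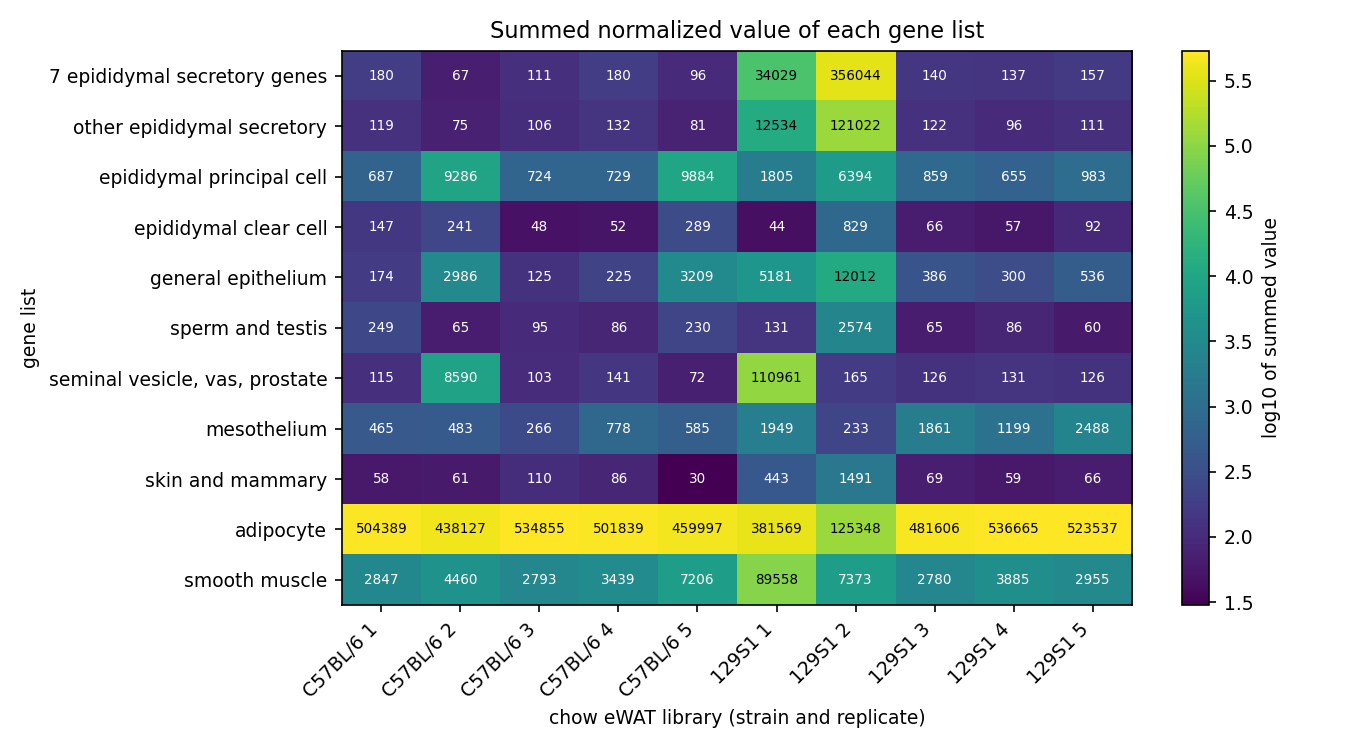
Summed normalized value of 11 gene lists (rows, sums printed, colour on a log10 scale) in each chow eWAT library. The 7 genes sum to 356044 in 129S1/SvImJ replicate 2 and 34029 in replicate 1 and to 67 to 180 elsewhere, and the adipocyte sum is lowest in replicate 2.

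The genes most like the mean profile of the 7 over the 10 chow libraries were looked for among 10493 genes that reached 100 in 1 library, by Pearson's r on the log2 scale. As the points share 2 libraries that stand apart, r mainly reads how high a gene was in those. Klhl34 and the ETS factor Etv5, a transcription factor of the initial segment, came first at 0.99. Klhl34 had 214 in replicate 2, 2 in replicate 1 and 1 in all 8 others, and Etv5 had 603, 116 and 59 to 74. St6gal1 (a sialyltransferase), Spag11a and Lman2 (a lectin of the secretory pathway) followed at 0.988, and Spink5 (a protease inhibitor) and Npc2 (a secreted sterol carrier abundant in epididymal fluid) at 0.987. Lap3 and Capn10, a peptidase and a calpain, had 0.985, and 2210415F13Rik 0.984. Npc2 was already at 1382 to 1993 in the 8 libraries and had 9164 in replicate 2.

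Outside the chow experiment the 7 genes were at or close to the floor in every library. Of 231 values in 33 libraries, 169 (73.2%) were at 1, 3 were over 4, and the highest was 10, for Rnase10 in C57BL/6 iWAT replicate 2. Because the authors normalized the chow table apart from the others, its levels of 3 to 69 in the 8 libraries are not on the scale of these. In the drug experiment 67 of 112 values were at the floor and the highest was 7, for Rnase10. In eWAT after 12 weeks of low fat diet 50 of 63 were at the floor, the highest being 6. In iWAT 52 of 56 were at the floor, and 6 of the 7 genes, all but Rnase10, were at 1 in all 8 libraries. The other 31 epididymal genes did not exceed 5 in any of the 33 libraries.

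**Figure D5:**
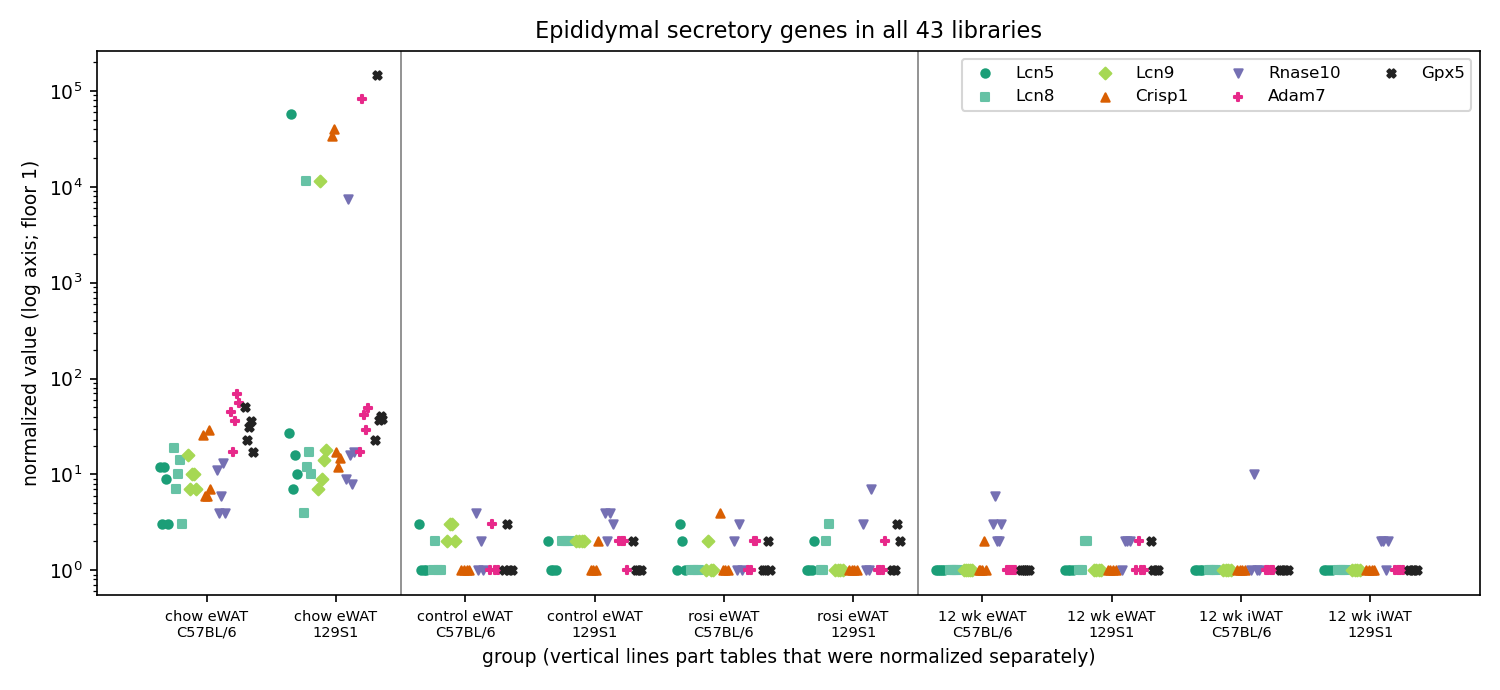
Normalized value (log axis) of the 7 genes in all 43 libraries, by group, with 1 point per gene and library. Vertical lines part tables that were normalized separately, and outside chow no point is above 10.

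In the drug experiment the lipocalins were between 1 and 3. Lcn5 was at 1 to 3 in the control and the rosiglitazone libraries of C57BL/6 and at 1 to 2 in those of 129S1/SvImJ. Lcn8 was at 1 to 2 in C57BL/6 control libraries, 2 in all 4 of 129S1/SvImJ, 1 in all 4 C57BL/6 rosiglitazone libraries and 1 to 3 in those of 129S1/SvImJ. Lcn9 had 2, 3, 3 and 2 in C57BL/6 control libraries and 1, 2, 1 and 1 with rosiglitazone, and 2 in all 4 129S1/SvImJ control libraries against 1 in all 4 with rosiglitazone. The 129S1/SvImJ groups of Lcn9 thus differed by a step from 2 to 1, at the floor, and those of C57BL/6 shared the value 2. Crisp1 was at 1 to 4, Adam7 and Gpx5 at 1 to 3, and Rnase10 at 1 to 7.

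Tested with limma over all genes (Benjamini-Hochberg adjusted p under 0.05), none of the 7 genes was called between strains on control diet (0 of 7, background 17.5% of all genes) or on rosiglitazone (0 of 7, background 10.7%). On control diet the log2 differences, 129S1/SvImJ minus C57BL/6, were -0.21 to 0.58 with a median of 0.15 beside 0.01 over all genes, and the smallest adjusted p was 0.179 (limma). On rosiglitazone they were -0.33 to 0.40 with a median of -0.15 and a smallest adjusted p of 0.282 (limma). At an unadjusted p under 0.05, 0 of 7 passed in both. With 67 of 112 values of the 7 genes at the floor and none above 7, the counts of this experiment cannot show that small differences are absent. The comparisons of the drug experiment share groups, so they are not independent of each other.

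Rosiglitazone against control gave 0 of 7 called in C57BL/6 (background 2.43%) and 0 of 7 in 129S1/SvImJ (background 5.51%). Lcn9 had the smallest p in both strains. Its log2 difference was -0.65 ± 0.19 (SE) in C57BL/6 (limma, adjusted p = 0.0825) and -0.58 ± 0.19 in 129S1/SvImJ (limma, adjusted p = 0.0827). It was the 1 gene of 7 at an unadjusted p under 0.05 in each strain, where 13.9% and 17.3% of all genes were. In C57BL/6 Lcn9 was called without rosiglitazone replicate 2 (adjusted p = 0.0261). In 129S1/SvImJ it was called in a fit of the 8 compared libraries alone, in which its values did not vary within a group (adjusted p = 8.18e-05). Both rest on a step from 2 or 3 to 1, at the floor. The other 6 genes had differences of -0.31 to 0.33. The strain by rosiglitazone interaction called 0 of 7 (background 0.210%), with a smallest adjusted p of 0.691 (limma).

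After 12 weeks of low fat diet, Rnase10 was the member most often above the floor. It had 2 to 6 in the 5 C57BL/6 eWAT libraries, 1 to 2 in the 4 of 129S1/SvImJ, 1 to 10 in C57BL/6 iWAT and 1 to 2 in 129S1/SvImJ iWAT, and the ranges of the 4 groups overlapped. Lcn8 had 1 or 2 in 129S1/SvImJ eWAT and 1 elsewhere, and Lcn5 and Lcn9 were at 1 in all 17 libraries. Crisp1, Adam7 and Gpx5 did not exceed 2. The mean log2 profile of the 7 genes moved only between 1.0 and 1.35 over these 17 libraries, and the gene most like it was Uba2 (r = 0.849), with Alg8 (0.773), Gnl1 (0.767), Trub1 (0.76) and Ttc30b (0.752) after it. Over the 16 drug experiment libraries, where it moved between 1.0 and 1.68, these were Tmem132a (0.776), Myh14 (0.697), Tnfrsf21 (0.671), Slc38a10 (0.665) and Unc45a (0.641). Between strains 0 of 7 were called in eWAT (background 21.7%, smallest adjusted p = 0.219 by limma) and 0 of 7 in iWAT (background 1.69%). Genes at 1 in all compared libraries could not be called. These were Lcn5 and Lcn9 in eWAT and all members but Rnase10 in iWAT, so there the count says nothing of a strain difference. The iWAT background is a count of 387 genes with all libraries and of 68 to 194 when any 1 was left out. The eWAT differences were -0.56 ± 0.28 for Rnase10 and 0.29 ± 0.15 for Lcn8, with -0.12 to 0.15 for the other 5.

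Between depots, iWAT minus eWAT, 0 of 7 were called in C57BL/6 (background 13.1%) and 0 of 7 in 129S1/SvImJ (background 1.72%). The strain by depot interaction also called 0 of 7 (background 3.14%). Differences were -0.38 to 0 in C57BL/6 and -0.29 to 0 in 129S1/SvImJ, where Lcn8 (-0.29 ± 0.11, adjusted p = 0.275 by limma) was the 1 of 7 at an unadjusted p under 0.05 and 13.3% of all genes were. Without iWAT replicate 2 of C57BL/6, the library with 10 for Rnase10, that gene was called (log2 difference -1.0, adjusted p = 0.0241 by limma). Most of these values are at the floor, so a small difference among them was not detectable on this scale. Genes at 1 in all compared libraries, Lcn5 and Lcn9 among them, could not be called.

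For iWAT the authors' deposited table lists a log2 fold change of 2.45 of C57BL/6 to 129S1/SvImJ, with p = 0.0392, for 6 of the 7 genes, although all 8 libraries are at 1. For Rnase10 the authors' deposited table gives 2.02. The same 2.45 stands in the authors' deposited table for all 5085 transcript rows that are at the floor in all 8 libraries. These rows are part of the 10720 with a listed p under 0.05 in that table. In eWAT after 12 weeks the authors' deposited table gives the 7 genes -0.89 to 0.68 with p-values of 0.329 or more.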

How the data were processed

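RNA-seq values came from 5 deposited tables with 43 libraries. Of 49 labelled samples, 5 of F1 mice and 1 GRO-seq sample were not analysed here. Per the labels' protocols, RNA came from Trizol and a Qiagen kit, and TruSeq RNA libraries went onto an Illumina Genome Analyzer. Per the submitters' processing notes HOMER was used with the build mm9. The sources used here do not state how reads were counted and normalized. Per transcript the tables hold, as deposited, a score: a whole number with a floor of 1 that the authors had normalized to a distribution shared within an experiment. Raw counts were not recoverable and no counting interval was computed. Beside these stand the authors' log2 fold change and the authors' p-value, with no word on whether the latter was adjusted. The 8 control libraries are identical in both drug tables. The 12-week tables share their highest value of 267214 and were compared across depots, and the chow table was not compared with others.

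Of 28644 transcript rows, the highest in total was kept for each of 22869 symbols. The tests ran on log2(value + 1) in R 4.3.3 with limma 3.58.1 (trend and robust, two-sided, no filter) in 10 comparisons, with Benjamini-Hochberg adjustment over all genes and a threshold of 0.05. The drug and depot fits used all 16 and 17 libraries of their experiments, and the 12-week strain comparisons their own 2 groups. The code was tested on simulated data. A fold change on this scale understates that of low genes. Differences of 8-fold were taken on value + 1.

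The 7 genes and all gene lists were chosen with earlier results of these data known. The rule for named genes took the 7 always, up to 6 genes of each list with the highest chow value, and the genes most like the mean profile of the 7 (10 on chow and 5 in each other experiment, among genes reaching 100). Neighbouring genes were taken by position. The other lists were epididymal secretory, principal cell and clear cell genes, general epithelium, sperm and testis, seminal vesicle with vas deferens and prostate, mesothelium, skin and mammary, and adipocyte. A smooth muscle list was added after values were seen. The largest values in a list can rest on 1 library, so libraries are given singly. Alternatives were the pseudocount (0 or 10), summed transcript rows, a mean of at least 5, each replicate left out, the replicate block and a fit of the compared libraries only.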

Additional observations from a re-analysis of the deposited data

Results flagged for a closer look

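Of 70 sets of values (7 genes in 10 groups), 26 held a library whose gap to the others exceeded Dixon's 95% limit. The limit is made for values without ties, so no chance rate is set beside this count. On chow the flags describe the values that chose the genes and are no test of them. In the 129S1/SvImJ chow group this was replicate 2 for 6 genes, with 58238 for Lcn5, 11478 for Lcn8, 11641 for Lcn9, 7394 for Rnase10, 81863 for Adam7 and 145538 for Gpx5. Crisp1 was not among them because replicates 1 and 2 were both high.

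The remaining 20 sets lie outside chow, where most values are at 1 and a single step away from otherwise equal values is enough. In C57BL/6 control libraries these were Lcn5 (3, replicate 1), and Lcn8 (2), Adam7 (3) and Gpx5 (3) in replicate 2. In 129S1/SvImJ control libraries they were Lcn5 and Gpx5 (2 each, replicate 1), Crisp1 (2, replicate 4) and Adam7 (1, replicate 4, the others being at 2). With rosiglitazone they were Crisp1 (4, replicate 1), Lcn9 (2, replicate 2) and Gpx5 (2, replicate 3) in C57BL/6, and Lcn5 and Adam7 (2 each, replicate 4) in 129S1/SvImJ. After 12 weeks of low fat diet they were Crisp1 (2, replicate 4) and Rnase10 (6, replicate 2) in C57BL/6 eWAT and Rnase10 (1, replicate 1), Adam7 (2, replicate 2) and Gpx5 (2, replicate 1) in 129S1/SvImJ eWAT. In iWAT they were Rnase10 at 10 in C57BL/6 replicate 2 and at 1 in 129S1/SvImJ replicate 3.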

How the results depend on the processing

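Counts of the 7 genes called were recomputed under 145 alternatives over the 10 comparisons, and 142 gave 0 as reported. 1 gene was called in the other 3. Leaving out each replicate gave 0 to 1 for rosiglitazone in C57BL/6 (Lcn9 without rosiglitazone replicate 2) and 0 to 1 for the depot in C57BL/6 (Rnase10 without iWAT replicate 2), and 0 in the other 8 comparisons. The fit of the compared libraries only gave 1 for rosiglitazone in 129S1/SvImJ (Lcn9), since its values are constant within each group. With a mean of at least 5 as a filter none of the 7 genes was left to test, so that alternative gave no value. On chow the median log2 difference of the 7 genes was 2.55, and it was 0.22 to 3.13 when each 129S1/SvImJ replicate was left out. It was 0.42 without both replicates 1 and 2, an alternative chosen after seeing the data. With the replicate number as a block 0 of the 7 genes were called in any of the 10 comparisons (smallest adjusted p = 0.099 by limma). In 0 of 9 sets of pairs did all same-numbered libraries deviate together (correlations from -0.4 to 0.43). This check asks it of every pair in a set, so it cannot exclude that some numbers pair libraries. The depth is unknown, and outside chow 73.2% of the values are at the floor, which limits what could be detected. The count over all genes behind the background shares moved further. It ranged over all alternatives from 30 (replicate block) to 290 for the iWAT strain difference (387 as reported, 68 to 194 with a replicate left out, 164 with summed transcript rows). It ranged from 1277 (replicate block) to 5123 for the 12-week eWAT strain difference (4973), from 220 (replicate block) to 1122 for the strain by depot interaction (717), from 211 to 435 for the depot in 129S1/SvImJ (393) and from 14 to 113 for the strain by rosiglitazone interaction (48). It ranged from 73 (fit of the compared libraries only) to 741 for rosiglitazone in C57BL/6 (556), from 788 to 1289 in 129S1/SvImJ (1261) and from 1407 to 2664 for strain on rosiglitazone (2443). It stayed within 1.5 times the reported count for strain on control diet and the depot in C57BL/6.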
